A study of Homo sapiens with 6 samples.

Results

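The 7 genes described here had lower levels in both HEK293T libraries that overexpressed ATF6 labelled WT or M67V than in the 4 other libraries of the series. They are IPPK, PEX10, CDKN1A, NATD1, SHISA2, PLCL2 and RMI2. The genes were chosen by these measured CPM values. CPM is a gene's count per 1000000 counts of its library. A gene entered if it had at least 20 CPM in each of the 4 other libraries. Its level in WT and in M67V also had to lie below the lowest of those 4, and the log2 ratio of the mean of WT and M67V to the mean of the 4 had to be -0.3 or less, which is 18.8% lower. The table has 38072 rows, of which 35582 were left without those named by a date or with a hyphen. Of these, 8442 rows with 8435 distinct symbols had the 20 CPM and are called genes here, and 7 of them, or 0.0829%, met the rule. The rule used the values of all 6 libraries, so the difference between WT and M67V on one side and the other 4 on the other is a description of the choice and was not tested.

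HEK293T is a human embryonic kidney line that carries the SV40 large T antigen and is easily transfected. The groups were cells that overexpressed ATF6 labelled WT, M67V (a missense change), N267star (a nonsense change), ex2-3del or ex8-14del (deletions of several exons), and cells labelled non-transfected, with 1 library of total RNA each. All transfected cells also kept their own ATF6 gene, and the control called non-transfected in the labels is an empty vector in the growth protocol. The authors' comparison sheet taken here for the WT library carries the name X373. The sources used here do not say if the WT construct encoded full-length ATF6. With 1 library per group there is no replicate check, and no test between conditions was made. Intervals in brackets are exact 95% intervals for a ratio of 2 counts and cover counting error only. In such bulk RNA, fewer cells with a transcript and less transcript per cell cannot be told apart.

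ATF6 is a transcription factor held in the membrane of the endoplasmic reticulum (ER). When unfolded protein accumulates it moves to the Golgi, is cut by site proteases, and its released part enters the nucleus and activates ER chaperone and degradation genes. It is known as an activator, and a parallel branch of the unfolded protein response, that of IRE1, is known to cut a set of ER-bound mRNAs. The ER chaperone gene HSPA5 had 3595 CPM in WT and 3318 CPM in M67V, against 696 CPM in N267star, 605 CPM in ex2-3del, 739 CPM in ex8-14del and 562 CPM in non-transfected cells. The WT library held 1136 CPM of ATF6 itself, M67V held 1468 CPM, N267star held 715 CPM, ex2-3del held 1359 CPM and ex8-14del held 2405 CPM, against 85.6 CPM in non-transfected cells.

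WT and M67V had totals of 16059625 and 16124318 counts, and the totals of the other 4 libraries ran up from 16294213 to 16852214, so the lowered genes were lowest in the libraries with the smallest totals. The part of depth in these results was not tested. The genes taken as markers of the HEK293T line were epithelial and neurofilament genes, VIM and PAX2. VIM stood between 539 and 613 CPM and KRT18 between 37.0 and 48.0 CPM. The neurofilament genes NEFL, NEFM and INA stood between 51.6 and 58.2 CPM, 134 and 152 CPM, and 96.6 and 106 CPM. KRT8 (5.71 to 7.36 CPM) and PAX2 (1.79 to 2.86 CPM) were low in each. The summed level of 7 markers of other cell types was 33.6 CPM in WT and 33.7 CPM in M67V and between 29.5 and 37.3 CPM in the other 4 libraries. Nearly all of it was COL1A1, while PTPRC was at 0 in WT and M67V.

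The promoters of CDKN1A and NATD1 are shown because, in the values that chose the genes, these 2 lay farthest below the other 4 libraries relative to counting error. Each run holds the 250 bases before and the 50 after the start site that RefSeq's table (GRCh38.p14) uses for the gene, on its strand. Capitals mark GC boxes (GGGCGG or its reverse complement) and the E-box CACGTG.
CDKN1A, chr6:36678464-36678763, plus strand: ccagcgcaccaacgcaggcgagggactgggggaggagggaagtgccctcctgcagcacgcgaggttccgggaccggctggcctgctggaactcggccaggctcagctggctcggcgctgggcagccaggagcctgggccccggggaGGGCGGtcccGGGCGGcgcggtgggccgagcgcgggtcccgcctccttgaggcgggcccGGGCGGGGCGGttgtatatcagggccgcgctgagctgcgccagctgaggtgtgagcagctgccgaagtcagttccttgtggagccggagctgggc
NATD1, chr17:21253361-21253660, minus strand: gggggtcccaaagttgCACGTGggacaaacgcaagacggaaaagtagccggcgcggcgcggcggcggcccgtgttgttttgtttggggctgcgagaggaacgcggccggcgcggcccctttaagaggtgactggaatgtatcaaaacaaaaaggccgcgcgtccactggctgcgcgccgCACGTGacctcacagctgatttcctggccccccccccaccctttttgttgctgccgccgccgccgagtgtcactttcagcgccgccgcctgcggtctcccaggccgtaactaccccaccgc
The CDKN1A window held 4 GC boxes, a pair of which overlap, and the NATD1 window held the E-box at 2 positions and no GC box.

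CDKN1A encodes p21, an inhibitor of cyclin-dependent kinases and a classical p53 target. Its level was 62.4 CPM in WT and 64.1 CPM in M67V, against 80.5 CPM in N267star, 84.6 CPM in ex2-3del, 78.4 CPM in ex8-14del and 82.1 CPM in non-transfected cells. WT and M67V lay close together and the other 4 formed a narrow band above them. The mean of WT and M67V was 22.3% below the mean of the 4 (log2 ratio -0.36). Against non-transfected cells the log2 ratio was -0.40 (-0.52 to -0.28) in WT and -0.36 (-0.48 to -0.24) in M67V. N267star stood at -0.03 (-0.14 to 0.08), ex2-3del at 0.04 (-0.07 to 0.15) and ex8-14del at -0.07 (-0.18 to 0.04). The narrowest gap was between M67V and ex8-14del, at a log2 ratio of -0.29 (-0.41 to -0.17). CDKN1A was also the 1 member with 50 CPM or more in the 4 libraries, so its counting error was the smallest.

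NATD1, a little-studied gene named for a predicted N-acetyltransferase domain, had 23.5 CPM in WT and 26.0 CPM in M67V. The other libraries held 31.5 CPM in N267star, 30.1 CPM in ex2-3del, 32.0 CPM in ex8-14del and 32.1 CPM in non-transfected cells. The 4 others differed by 1.07-fold at most, and WT and M67V lay below that band. Against non-transfected cells the log2 ratio was -0.45 (-0.64 to -0.25) in WT and -0.30 (-0.49 to -0.12) in M67V. The narrowest gap, M67V against ex2-3del, stood at -0.21 (-0.40 to -0.02).

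RMI2 encodes a subunit of the complex of BLM helicase and topoisomerase TOP3A that dissolves recombination intermediates. Its level was 24.8 CPM in WT and 26.7 CPM in M67V, against 30.3 CPM in N267star, 31.1 CPM in ex2-3del, 33.2 CPM in ex8-14del and 32.1 CPM in non-transfected cells. The 4 others were again close together. Of the 8 ratios of WT or M67V to another library, 7 had an interval below 0, and the exception was M67V against N267star at -0.19 (-0.37 to 0.003). RMI2 was the member closest inside the fold threshold, with a log2 ratio of -0.30. Among 10 genes of the BLM complex and its partners with 20 CPM, no other gene met the rule, which 0.0829% of all genes met. This list was drawn up once the 7 genes were known. RMI1, the partner subunit, stood at -0.15, TOP3A at -0.05 and BLM at 0.002 on the same log2 scale. RPA3 stood at -0.25, RPA2 at -0.14 and FANCD2 at 0.01. Of the 10 genes, RMI2 included, 4 were lower in both WT and M67V than in the other 4 libraries, where 17.3% of all genes were.

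SHISA2 belongs to a family named for the Xenopus protein Shisa, which holds Frizzled and FGF receptors in the ER. It had 24.4 CPM in WT and 24.3 CPM in M67V, against 33.8 CPM in N267star, 32.5 CPM in ex2-3del, 25.8 CPM in ex8-14del and 30.01 CPM in non-transfected cells. WT and M67V were nearly equal, and the ex8-14del library lay just above them and apart from the other 3. WT against ex8-14del stood at a log2 ratio of -0.08 (-0.28 to 0.12), while ex8-14del against non-transfected cells stood at -0.22 (-0.41 to -0.03). The log2 ratio to non-transfected cells was -0.30 (-0.49 to -0.10) in WT and -0.30 (-0.50 to -0.11) in M67V. SHISA5, the other family gene with 20 CPM, was also lower in both WT and M67V than in the other 4 libraries. Its log2 ratio was -0.14, and 17.3% of all genes were lower in both.

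PLCL2 encodes a catalytically inactive relative of phospholipase C. Its level was 18.4 CPM in WT and 20.7 CPM in M67V, against 25.2 CPM in N267star, 26.0 CPM in ex2-3del, 22.0 CPM in ex8-14del and 23.5 CPM in non-transfected cells. The ex8-14del library was again the lowest of the 4. M67V did not differ from it beyond counting error (-0.08, -0.30 to 0.13), nor from non-transfected cells (-0.18, -0.40 to 0.03), while WT stood at -0.35 (-0.57 to -0.13) against non-transfected cells. The other 3 phospholipase C genes with 20 CPM had log2 ratios between -0.07 and -0.01. Of the 4, PLCL2 included, 2 were lower in both WT and M67V than in the other libraries, where 17.3% of all genes were.

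IPPK, the kinase that makes inositol hexakisphosphate, had the lowest log2 ratio of the 7, at -0.42, but also the widest spread. Its level was 21.9 CPM in WT and 19.1 CPM in M67V, against 33.8 CPM in N267star, 22.3 CPM in ex2-3del, 24.3 CPM in ex8-14del and 29.1 CPM in non-transfected cells. The 4 others spanned 1.52-fold, and the lowest of them stood next to WT (-0.02, -0.24 to 0.19). Of 10 genes of inositol phosphate kinases and phosphatases with 20 CPM, IPPK included, 4 were lower in both WT and M67V (17.3% of all genes). IPPK overlaps CENPP, a centromere protein gene on the opposite strand, and no strand setting is stated for the counting. CENPP had 22.0 CPM in WT and 25.4 CPM in M67V, against 13.2 CPM in N267star, 26.0 CPM in ex2-3del, 20.5 CPM in ex8-14del and 16.2 CPM in non-transfected cells. Its order across the other 4 libraries was the reverse of that of IPPK. The summed level of both genes was 43.9 CPM in WT and 44.5 CPM in M67V, against 47.0 CPM, 48.3 CPM, 44.8 CPM and 45.2 CPM in N267star, ex2-3del, ex8-14del and non-transfected cells. The log2 ratio of the sum was -0.07, against -0.42 for IPPK alone and -0.23 for the sum if CENPP is held at its mean in the other 4.

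**Figure D1:**
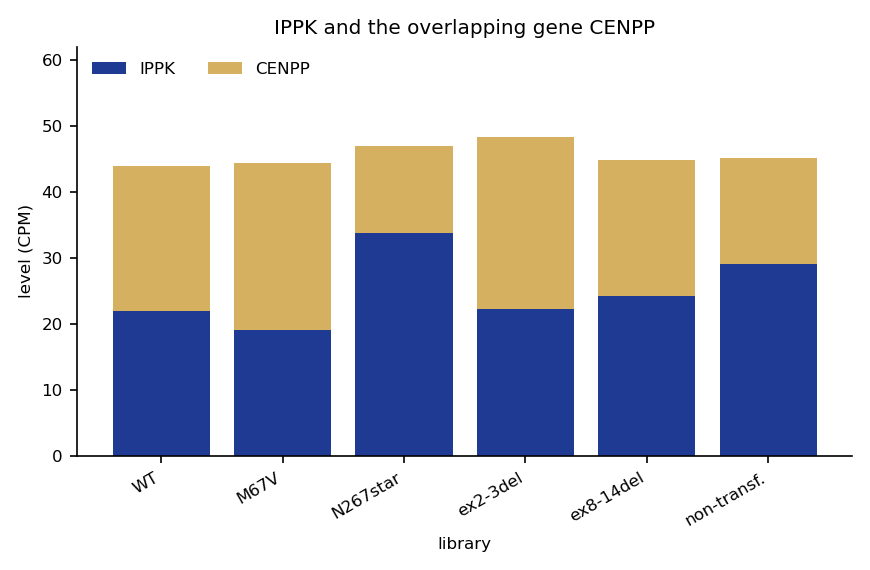
Stacked bars give the level of IPPK (lower part) and of the overlapping gene CENPP (upper part) in CPM for each of the 6 libraries. The IPPK part runs between 19.1 and 33.8 CPM, while the total stays between 43.9 and 48.3 CPM.

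PEX10, a ubiquitin ligase of the peroxisomal membrane that serves the recycling of import receptors, showed a similar spread. It had 21.0 CPM in WT and 22.3 CPM in M67V, against 30.9 CPM in N267star, 24.9 CPM in ex2-3del, 33.1 CPM in ex8-14del and 24.7 CPM in non-transfected cells. N267star and ex8-14del were high, and ex2-3del and non-transfected cells stood close to M67V. Against non-transfected cells the log2 ratio was -0.24 (-0.45 to -0.02) in WT and -0.15 (-0.36 to 0.06) in M67V, but 0.42 (0.23 to 0.61) in ex8-14del. PEX10 overlaps RER1, a gene of early secretory retrieval on the opposite strand, which had between 125 and 150 CPM in the 6 libraries. RER1 makes up most of the summed level of both, which had a log2 ratio of -0.03, or -0.06 if RER1 is held at its mean in the other 4. The sum therefore does not show whether the lower level of PEX10 stands. Of 10 peroxin genes with 20 CPM, a list likewise drawn up afterwards, no other met the rule, which 0.0829% of all genes met. The remaining 9 had log2 ratios between -0.11 and 0.15. Of the 10, PEX10 included, 2 were lower in both WT and M67V, where 17.3% of all genes were.

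**Figure D2:**
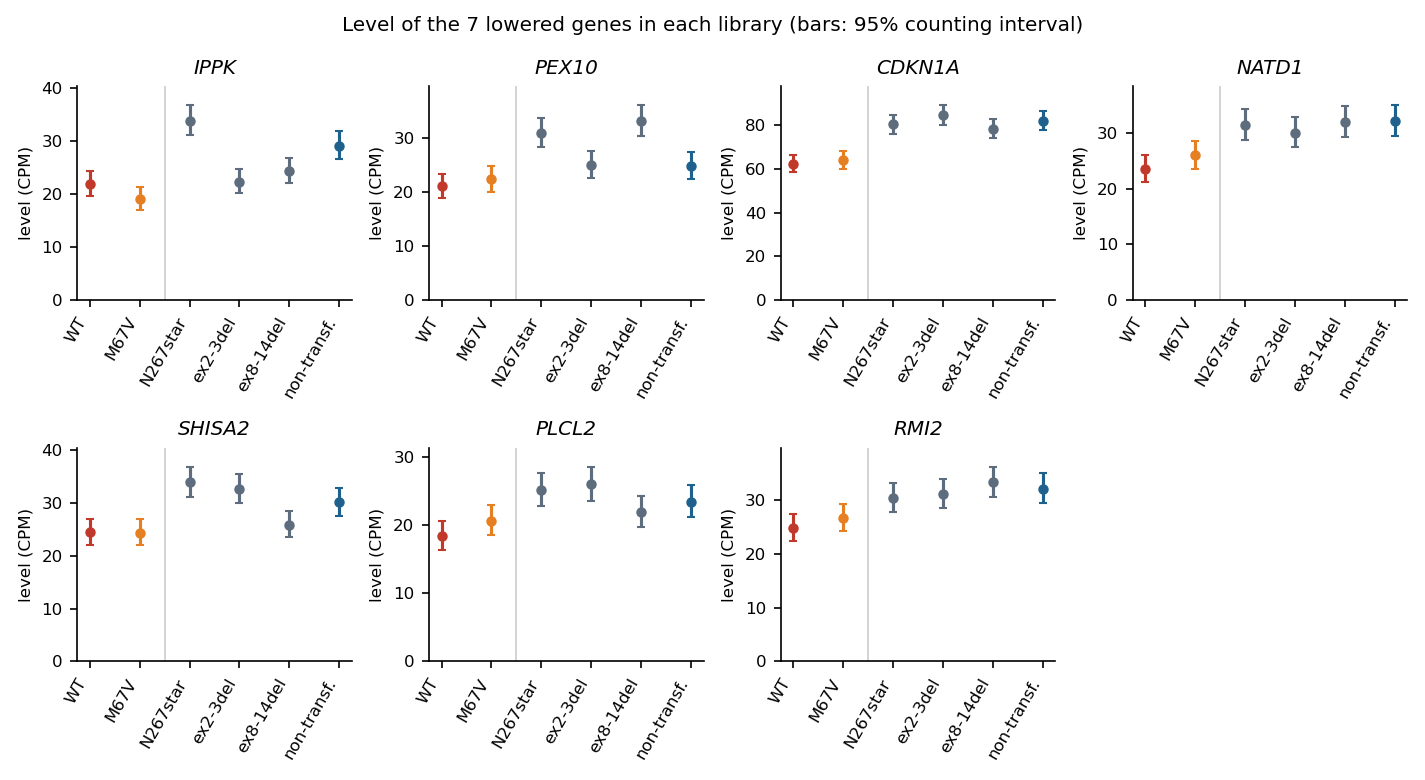
Each panel gives 1 gene's level in CPM in the 6 libraries, with bars for the exact 95% counting interval of that library. WT and M67V, left of the line, lie below the other 4 in every panel by the rule. In CDKN1A and NATD1 the other 4 are close together. They spread by 1.52-fold in IPPK, 1.34-fold in PEX10 and 1.31-fold in SHISA2.

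The 8 ratios of WT or M67V to each other library were taken for every gene. They use the values that chose the genes, so their counts describe the choice and support nothing. Of the 56 ratios of the 7 genes 47 had an interval below 0, against 21.8% of all such ratios over the 8442 genes. All 8 did so for CDKN1A and NATD1, 7 for RMI2, and 6 each for IPPK, PEX10, SHISA2 and PLCL2. Without the fold, 62 genes (0.734%) had all 8 intervals below 0 and 220 (2.61%) had all 8 above 0. In 5 of the 7 genes, all but NATD1 and RMI2, the interval between the highest and the lowest of the other 4 libraries excluded 0, as it did for 66% of all genes. The pair was picked by its values, which favours such an interval. Intervals are wider at low counts, and 6 of the 7 genes had a mean level under 35 CPM, as did 19.5% of all genes. The interval shares over all genes, here and below, are therefore not taken at a like level.

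Set against the shared non-transfected library, the 7 genes had a median log2 ratio of -0.37 in WT and -0.30 in M67V. All 7 were below 0 in each, which the rule required. The medians over all 8442 genes were -0.03 in WT and -0.04 in M67V, and 59.0% and 65.9% of them were below 0. At a log2 ratio of -0.3 or less stood 5 of the 7 in WT, where 1.86% of all genes did, and 4 of the 7 in M67V, where 0.58% did. These counts follow in part from the rule. In N267star 0 of the 7 passed that fold (1.04% of all genes), in ex2-3del 1, which was IPPK (0.498%), and in ex8-14del 0 (0.9%). The rule asked that these 3 alleles lie above WT and M67V, which works against low values there. Their counts and medians therefore also follow in part from the rule. The medians in N267star, ex2-3del and ex8-14del were 0.10, 0.01 and -0.07, and that in N267star was -0.03 without IPPK and PEX10. Of the 21 ratios of these 3 alleles to non-transfected cells 6 had an interval that excluded 0, against 29.8% of such ratios over all genes (36.7% of those for N267star, 24.9% for ex2-3del, 28% for ex8-14del). They were IPPK in all 3, PEX10 in N267star and ex8-14del, and SHISA2 in ex8-14del.

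The interval of M67V over WT held 0 in each of the 7 genes and excluded it in 28.9% of all genes, most of which had higher counts and so narrower intervals. The log2 ratios of M67V over WT in the 7 genes lay between -0.20 (-0.42 to 0.03) for IPPK and 0.17 (-0.06 to 0.40) for PLCL2. At a log2 ratio of 0.3 in either direction stood 0 of the 7, where 0.557% of all genes were lower in M67V and 0.604% were higher. WT was the lower in 5 of the 7, against 49.3% of all 8442 genes. The rule put no limit on this order. Among the other 4 libraries ex8-14del was the lowest for 3 of the 7 genes, CDKN1A, SHISA2 and PLCL2, ex2-3del for IPPK and NATD1, and N267star and non-transfected cells for 1 each. Over all genes, ex8-14del was the lowest of the 4 in 27.8% and ex2-3del in 16.7%.

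The lowered genes were few and their ratios small beside the raised ones. The same rule turned round, with WT and M67V both above the other 4 and a log2 ratio of 0.3 or more, was met by 166 genes, or 1.97%. Those reached a log2 ratio of 3.39 and had a median of 0.46, and the 7 lowered genes lay between -0.42 and -0.30 with a median of -0.34. At a log2 ratio of -0.5 or less no gene met the rule, while 76 met the mirrored one at 0.5. Without the fold, 1462 genes (17.3%) were lower in both WT and M67V than in the other 4 and 588 (6.97%) were higher, and the median log2 ratio of all 8442 was -0.03. Of the 7 genes 6 had a mean level under 35 CPM, as did 19.5% of the 8442.

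**Figure D3:**
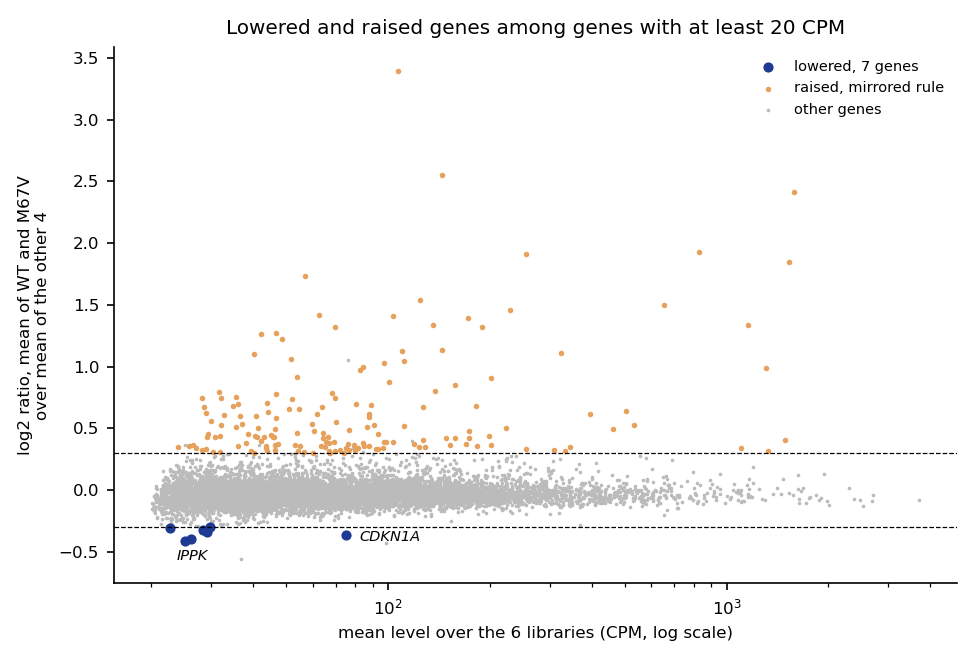
Each point is 1 of the 8442 genes, with its mean level over the 6 libraries on a log axis (CPM) and the log2 ratio of the mean of WT and M67V to the mean of the other 4; dashed lines stand at -0.3 and 0.3. The 7 lowered genes lie just under the lower line, 6 of them at the low end of the level axis, while the 166 raised genes reach 3.39.

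The count depended on single libraries and on the thresholds. Without N267star 12 genes met the rule, of which 4 were among the 7, with IPPK, SHISA2 and PLCL2 lost. Without ex2-3del it was 9 genes, with 5 of the 7, and SHISA2 and PLCL2 were lost. Without ex8-14del it was 11 and without non-transfected cells 10, with 6 of the 7 in each and RMI2 lost in both. With M67V alone it was 24 genes, with 4 of the 7, and NATD1, PLCL2 and RMI2 were lost. With WT alone it was 54, with all 7. CDKN1A was the 1 gene of the 7 with at least 50 CPM in the 4 libraries, and with library sizes scaled by TMM or by DESeq2 size factors 4 genes remained, which were CDKN1A, NATD1, PEX10 and SHISA2. Just outside the fold stood GEMIN2 at -0.29, LRFN4 at -0.29 and NME3 at -0.29. Just inside were RMI2 and PLCL2 at -0.30 and SHISA2 at -0.33. The fold alone was passed by 9 genes (0.107%), and 2.04% of genes passed it upwards. The 2 of the 9 that were not lower in both WT and M67V than in the other 4 were C9orf24 and TUBGCP4.

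In the authors' deposited table of DESeq comparisons with non-transfected cells, which also rests on 1 library per side, IPPK had an adjusted p-value of 0.0469 in M67V. It was the only value under 0.05 among the 7 genes in the 5 comparisons of that deposited table. These values come from the same libraries that chose the genes, so they are no independent support. IPPK is also the gene whose sum with the overlapping CENPP had a log2 ratio of -0.07. The authors' deposited table gave CDKN1A 0.152 in WT and 0.372 in M67V. Its sheet named X373 was read as WT because the remaining sheets carry the names of the other alleles. Of the genes with 20 CPM, 1.68% were under 0.05 in WT and 1.72% in M67V in the authors' deposited table. The shares in the authors' deposited table were 0.0356% (N267star), 0.0948% (ex2-3del) and 0.237% (ex8-14del).

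Among 20 gene lists of pathways and cell functions, with 418 distinct genes, CDKN1A, in the p53 list, was the only member of any. The rule was met by 0.0829% of all genes, so 1 member or none in such lists says little. Of 16 p53 target genes with 20 CPM 14 had a log2 ratio below 0, where 67.7% of all genes did, and 7 were lower in both WT and M67V than in the other 4, where 17.3% were. The list median was -0.11, against -0.03 for all genes, and no p53 target met the mirrored rule. These counts include CDKN1A, which the rule chose. The shift was not particular to this list. Of 22 genes of DNA replication 19 were below 0 and 12 were lower in both (median -0.11). Of 21 respiratory chain genes 18 were below 0 and 9 were lower in both (median -0.09). Of 22 genes of cell adhesion and receptors 8 were below 0 and 0 were lower in both (median 0.02). Next to CDKN1A stood PHLDA3, a p53-induced inhibitor of AKT signalling, at -0.26, SESN1, a stress-induced regulator of mTOR, at -0.18, and BTG2, an antiproliferative factor, at -0.18. MDM2, the ubiquitin ligase of p53, stood at -0.04 and PPM1D, a phosphatase induced by p53, at 0.004. Against non-transfected cells, WT had a list median of -0.08 and M67V one of -0.09. N267star had 0.03, ex2-3del had 0.05 and ex8-14del had 0.07. CDKN1A, which the rule chose, was the 1 list gene at -0.3 or less in WT (1.86% of all genes) and in M67V (0.58%). No list gene was in N267star (1.04% of all genes), ex2-3del (0.498%) or ex8-14del (0.9%). At shares this low, counts over 16 genes say little. In HEK293T the large T antigen binds p53, which is background and not a measurement here.

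**Figure D4:**
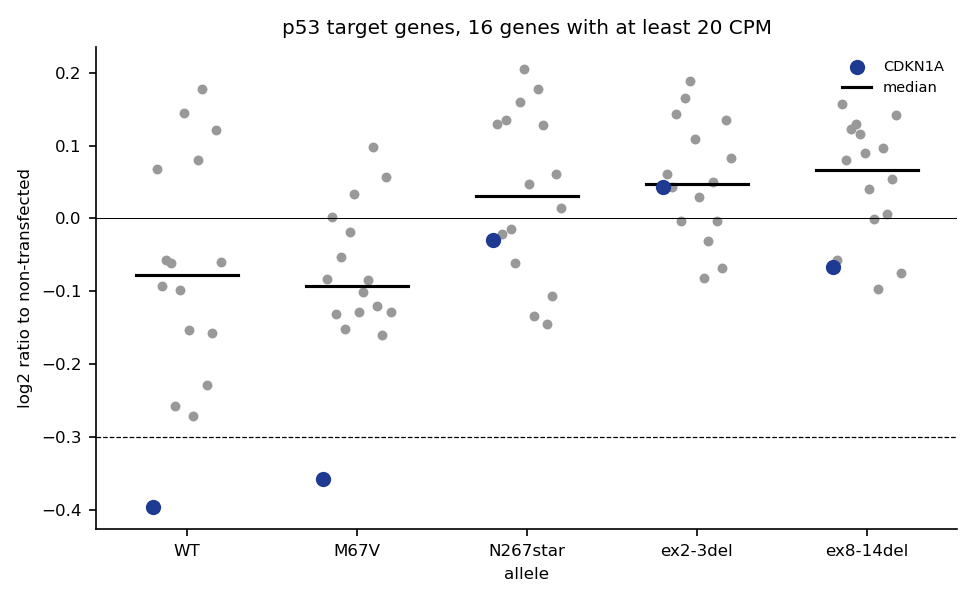
Each point is 1 of 16 p53 target genes, with its log2 ratio to the non-transfected library in each allele; the large points are CDKN1A, the bars are medians and the dashed line stands at -0.3. CDKN1A lies at -0.40 in WT and -0.36 in M67V, and at -0.03, 0.04 and -0.07 in N267star, ex2-3del and ex8-14del.

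The other CDK inhibitor genes with 20 CPM, CDKN1B, CDKN2A, CDKN2C and CDKN3, had log2 ratios between -0.09 and 0.02. In the list of mRNAs known as targets of IRE1-dependent decay, 10 had 20 CPM and none met the rule, which 0.0829% of all genes met. At that share a list without a member, here and below, says little. Of these 10, 2 were lower in both WT and M67V, where 17.3% of all genes were, and the median was -0.05. PER1 of that list met the mirrored rule, at a log2 ratio of 1.40. Of 23 ER chaperone and degradation genes none met the rule and 22 met the mirrored one, which 1.97% of all genes met. Of 24 genes of mitosis 0 met the rule, 1 was lower in both and 1, UBE2C at 0.91, met the mirrored rule, with a median of 0.01. Of 22 genes of DNA replication 0 met the rule, but 12 were lower in both, where 17.3% of all genes were. The median of these 22 was -0.11, against -0.03 for all genes, and 1, CCNE2 at 0.38, met the mirrored rule.

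All 7 genes are protein-coding. They lie on chromosomes 9 (IPPK), 1 (PEX10), 6 (CDKN1A), 17 (NATD1), 13 (SHISA2), 3 (PLCL2) and 16 (RMI2). Overlap with another expressed gene was found for 2 of the 7, IPPK and PEX10, and for 25.4% of the genes with 20 CPM that the annotation holds. RefSeq's table held a promoter for 6 of the 7, all but RMI2. Their GC content was between 63.7% (PLCL2) and 74.3% (CDKN1A), against a median of 66.0% for 6765 genes with 20 CPM. On both strands, GGGCGG stood in 4 of the 6 windows, CACGTG in 2 and CCAAT in 1. The shares among those 6765 promoters were 73.8%, 11.1% and 37.8%, and they were 45.0%, 7.26% and 34.6% among all 35116 promoters RefSeq gave. The ER stress elements to which ATF6 is known to bind, ERSE (CCAAT, 9 bases of any kind, CCACG) and ERSE-II (ATTGG, 1 base of any kind, CCACG), stood in none of the 6, and each in 0.148% of the 6765 promoters. The element TGACGTGG also stood in none of the 6 and in 1.05% of the 6765. These matches describe letters in a window and not binding.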

How the data were processed

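Total RNA of lipofected cells was purified on RNeasy columns, per the labels' protocols. The authors deposited the expected count per gene symbol for 6 libraries. The submitters' processing notes name the build GRCh37.p13 and DESeq. For the aligner, the counting program and its strand setting the sources used here give nothing. The placeholder of 0.028 for genes without reads was set to 0, 28 rows named by a calendar date and 2462 names with a hyphen were left out of the rule but not of the totals, and CPM was taken by column total. Counts were rounded for intervals, which are Clopper-Pearson intervals of the 2 counts. The authors also deposited adjusted p-values from DESeq, per the file headers. A second count table, with 6 columns of per-sample values, was not used because 1 column is headed by a number that matches no label.

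At 16059625 to 16852214 counts per library, 20 CPM is over 300 counts. Without molecular identifiers, PCR copies of a molecule are counted more than once, so intervals cover counting error only. Samples were grouped by the genotype label, and no test was run. The alternatives were scalings with TMM (edgeR 4.0.16) and DESeq2 1.42.0 size factors in R 4.3.3, other thresholds, and libraries or overlapping genes left out. The other steps ran in Python 3.11.15 (pandas 2.3.3, numpy 2.4.6, matplotlib 3.10.9, scipy 1.17.1). Overlaps, chromosomes and gene types came from GENCODE on GRCh38, which is not the authors' build. It held 97.1% of the genes with 5 CPM in any library. The steps were tested on simulated data.

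The genes named are the members, those closest to the threshold on either side, and ATF6 and HSPA5 as checks of the labels. Family members, list genes and overlapping genes were picked for mention with their values in view. The 7 genes and all lists were chosen with earlier results of these data known.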

Additional observations from a re-analysis of the deposited data

How the results depend on the processing

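Of the 18 other settings tried for the number of lowered genes, 6 kept it within 1.5 times of 7. With TMM scaling or with DESeq2 size factors it was 4 in each and the median log2 ratio of all genes was -0.01 in each, against -0.03 by column total. RMI2 and PLCL2 then stood at -0.28, above the threshold, and IPPK left because its WT level was no longer below that of ex2-3del. It was 18 with a minimum of 10 CPM, 1 with 50 CPM and 245 with none, and 96 at a log2 ratio of -0.2 and 0 at -0.5. It was 2 when all 8 intervals had to lie below 0. Leaving out 1 library gave between 9 and 54 genes. Among the 7 genes, those past the fold in M67V fell to 2 with TMM scaling and to 2 with DESeq2 size factors, against 4 by column total. In ex2-3del the number was 0 without overlapping genes, since IPPK is one of them. The median of the 7 in N267star was -0.03 without overlapping genes, against 0.10. The log2 ratio of each of the 7 genes was also below 0 with TMM scaling, with DESeq2 size factors and with any 1 library left out. With 1 library left out the rule fixed that sign, so it is no check. The values there lay between -0.52 for IPPK and -0.22 for PLCL2, both without WT. Either scaling moved the lowest of the 7 ratios only from -0.42 to -0.39, so a change of sign was out of reach there too. Summed with their overlapping genes, IPPK stood at -0.07 and PEX10 at -0.03. The alternatives that kept hyphenated names, asked for all 8 intervals, summed overlapping genes or left out 1 library for single genes were added after the data were seen. No paired analysis was possible because each group has 1 library. For the 6 genes under 35 CPM depth limits the precision of each ratio.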

Other observations

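A minimum of 10 CPM in place of 20 CPM added 11 genes, with log2 ratios between -0.36 and -0.31. They are named here after their values were seen. BBC3, the p53 target that encodes the cell death protein PUMA, had 12.0 CPM in WT and 13.3 CPM in M67V, against 14.4 CPM in N267star, 16.4 CPM in ex2-3del, 18.0 CPM in ex8-14del and 14.2 CPM in non-transfected cells. The other p53 list genes let in by the lower minimum did not meet the rule. Of these, GADD45A had a log2 ratio of 0.12, TP53INP1 of -0.14 and FAS of -0.06. AGA, a lysosomal enzyme of glycoprotein breakdown, had 11.3 CPM in WT and 11.0 CPM in M67V, and between 12.4 and 15.7 CPM in the other 4. ACOX3, a peroxisomal acyl-CoA oxidase, had 9.59 CPM in WT and 9.05 CPM in M67V, and at least 10.5 CPM in the other 4. RASL11A, CACFD1, UNC93B1, ADA, SIGIRR, LRRCC1, SDC1 and NES were the others. For SDC1, the highest of WT and M67V was 13.58 CPM and the lowest of the other 4 was 13.60 CPM.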
